A study of Mus musculus with 42 samples.

Results

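Goblet cells of mice that lost Smad4 in the stroma were compared with goblet cells of mice that lost Alk3 there. The comparison used 8 of the 42 samples of the series, chosen by their labels: 4 RNA-seq libraries of Muc2-mCherry+ cells from GS4M2 mice (Gli1-CreERT2, Smad4-loxp, Muc2-mCherry) and 4 from GA3M2 mice (Gli1-CreERT2, Alk3-loxp, Muc2-mCherry), with 2 libraries each from the proximal and the distal colon. All mice had received tamoxifen, the cells were taken at day 30, and the methods give adult animals of both sexes. The 4 GWTM2 libraries, from Gli1-CreERT2 mice with the Muc2-mCherry reporter and no floxed gene, were treated alike and are given as background. CreERT2 was driven by Gli1, a gene of stromal cells, so the sorted epithelial cells were not themselves the cells meant to recombine, and both knockouts and controls carry the Cre and the reporter.

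Goblet cells are the mucus-secreting cells of the gut epithelium. They fold and glycosylate the gel-forming mucin Muc2 in a large endoplasmic reticulum and Golgi and release it with a set of partner proteins that hold the mucus layer together and keep bacteria off the epithelium. Bone morphogenetic proteins (BMPs) signal through type I receptors, of which Alk3 (gene Bmpr1a) is one, and the activated receptor phosphorylates Smad1, Smad5 and Smad8. Smad4 is the partner that these Smads share with Smad2 and Smad3 of the TGF-beta and activin branch, so that loss of Alk3 removes a BMP receptor while loss of Smad4 touches both branches. The question of the comparison was therefore which goblet cell genes differed between the loss of the receptor and the loss of the shared Smad.

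The 8 libraries held between 15647603 and 20783127 reads on named genes, and values below are counts per 1000000 of these reads (CPM). Of 15292 gene names, 13114 had a row for all groups, and 12318 of those with a mean of at least 1 CPM were tested. The targeted genes do not check the labels, since the deletion was aimed at other cells than those sorted: Smad4 was at 108 to 154 CPM in GS4M2 and 140 to 242 in GA3M2, and Bmpr1a at 81.6 to 93.8 in GS4M2 and 69.7 to 86.2 in GA3M2. All 15 goblet markers had a row in every table. Their summed level was 45342 to 53454 CPM in GS4M2 and 14311 to 28440 in GA3M2, against 34771 to 66027 in GWTM2. Called lower than GWTM2 in GA3M2 were 4 of the 15, against 1.12% of all genes tested. For GS4M2 none was called either way, against 0.447% of all genes, a share at which none among 15 says little. Muc2 is 1 of the 15 and is part of these sums. Over the 15 markers the median log2 difference, GS4M2 minus GA3M2, was 0.28, with 5 negative and 3 called higher in GS4M2 (0.820% of all genes). Since the gate was set on a Muc2 reporter, Muc2 took part in choosing the cells of every group. The second proximal GA3M2 library stood farthest from the others in a principal component analysis. All 8 libraries expressed genes of the Y chromosome, while the first GWTM2 library of each segment did not and expressed Xist. A second listing of the proximal GS4M2 comparison by the authors has the names GS4M2 and GWTM2 exchanged. The names of the deposited columns were kept here, whose proximal GWTM2 libraries had equal reads in both tables for 13669 of 13669 shared genes. GS4M2 and GA3M2 come from separate tables, so genotype cannot be told apart from any batch in which the animals were handled.

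Goblet cells of the genotypes differed in 210 genes at an adjusted p under 0.05 (limma with the segment as a block, Benjamini-Hochberg) and a fold change of at least 2, which is 1.70% of the genes tested. Of these, 101 were higher in GS4M2 (0.820%) and 109 higher in GA3M2 (0.885%). These shares are the background for the counts of called genes in the lists below. They cover only genes with a row for all groups. Genes such as Lyz2, with 303 to 537 reads in GA3M2 and no GS4M2 row, could not be called in either direction. In both segments GS4M2 and GA3M2 libraries were fully apart for 207 of the 210, and for 24.6% of all genes tested. The median difference over all genes was 0.04 on the log2 scale and 55.4% of genes had a positive difference, meaning higher in GS4M2, the sign used throughout. At an unadjusted p under 0.05 there were 3186 genes (25.9%), which is the background for such counts below. Fold changes are on the scale of log2(CPM + 1), which understates the change of genes near the detection limit. Whether the proximal and distal library of a number come from the same animal is not in the labels. When each such pair was averaged, which treats the 8 libraries as 4 animals, 63 genes were called, 59 of them among the 210. With 1 library left out in turn, 85 genes were called without the first distal GS4M2 library, 109 and 133 without the second and the first proximal GS4M2 library, 137 without the second distal GA3M2 library, and between 160 and 241 without any of the other libraries. Without the second proximal GA3M2 library 204 were called.

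Muc2, the gel-forming mucin of the colon, was the gene with the largest increase in GS4M2 over GA3M2. It stood at 24426 and 21082 CPM in the proximal GS4M2 libraries and at 14151 and 11164 in the distal ones, against 1027 and 733 in proximal and 932 and 752 in distal GA3M2 libraries. Every GS4M2 library was thus far above every GA3M2 library, and the GWTM2 libraries lay between them at 9908 and 12374 proximal and 2429 and 6270 distal. The difference was 4.31 ± 0.23 (SE) on the log2 scale, or 19.8-fold (adjusted p = 0.00011), and it was called under all 22 alternative settings. An exact permutation test of Muc2 alone within segments gave p = 0.0556 (two-sided), the smallest that its 36 arrangements allow. Muc2 lies on chromosome 7 from 141690340 to 141754693 on the plus strand (GRCm38, GENCODE M21).

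Proteins secreted together with Muc2 followed it in part. Of 22 tested genes for goblet secretory products, 3 were higher in GS4M2 and none in GA3M2, with a list median of 0.18. Ang4, an antimicrobial ribonuclease of goblet and Paneth cells, was at 318 and 473 proximal and 123 and 129 distal in GS4M2, and at 24.4 and 25.9 proximal and 11.2 and 3.87 distal in GA3M2, a difference of 3.97 ± 0.25 (adjusted p = 0.00018). Clca1, a secreted metalloprotease that processes Muc2 in the mucus, was at 1225 and 3331 proximal and 4091 and 9187 distal in GS4M2. In GA3M2 Clca1 was at 303 and 85.7 proximal and 1134 and 426 distal, so that the groups were apart in each segment while the highest distal GA3M2 library came close to the lowest proximal GS4M2 library (3.39 ± 0.50, adjusted p = 0.01). Fcgbp, a large protein that is cross-linked into mucus, was 1.45 ± 0.34 higher (adjusted p = 0.047), a call that held in 9 of 22 alternatives and was lost without the second proximal GA3M2 library, which left 2 of the 22 products called. Other abundant goblet products were not called: Zg16, a lectin that binds bacteria, had a difference of -0.80 (adjusted p = 0.17), the trefoil peptide Tff3 -0.55 (adjusted p = 0.30) and Agr2, a disulfide isomerase needed for Muc2 folding, 0.79 (adjusted p = 0.06). The difference was therefore not shared by goblet products as a whole.

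**Figure D1:**
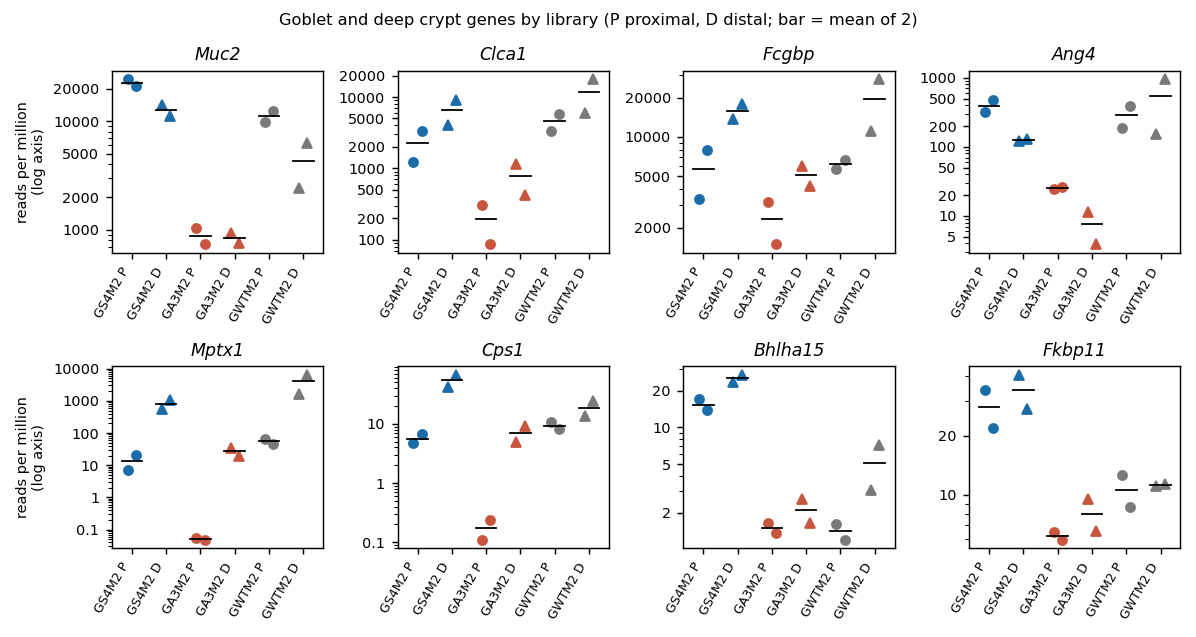
CPM (log axis) of 8 genes in each library, by genotype and segment (P proximal, D distal), with circles for proximal, triangles for distal libraries and a bar for the mean of 2. Muc2 lies at 11164 or more in GS4M2 and at 1027 or less in GA3M2, while for Bhlha15 and Fkbp11 the GA3M2 libraries sit near the GWTM2 libraries.

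Of 8 mucins tested, Muc2 was called higher in GS4M2 and Muc1, a membrane-bound mucin, higher in GA3M2. Muc1 was at 2.24 and 1.99 proximal and 9.97 and 9.75 distal in GS4M2 and at 8.21 and 2.89 proximal and 39.1 and 23.9 distal in GA3M2 (-1.24 ± 0.28, adjusted p = 0.042), and it was called in 10 of 22 alternatives. Muc13, a membrane mucin, was at 1438 to 1874 in GS4M2 and 1731 to 2155 in GA3M2 (-0.23 ± 0.15, adjusted p = 0.38). Muc3 gave -0.76 ± 0.41 (adjusted p = 0.27) and Muc20 0.44 ± 0.29 (adjusted p = 0.36). Muc4 and Muc6 had positive differences of 1.09 ± 0.31 (adjusted p = 0.078) and 0.90 ± 0.26 (adjusted p = 0.076), and Muc3a had -0.96 ± 0.20 (adjusted p = 0.034), under the fold change of 2. Of the genes the study grouped as mucin genes, which were chosen on these samples, Muc2 was the 1 called of 5 tested. Spdef, a transcription factor of goblet cell maturation in that group, was at 322 to 645 in GS4M2 and 393 to 835 in GA3M2 (-0.36 ± 0.18, adjusted p = 0.24). Muc5b and Muc19 lacked a row in at least 1 table and were not tested.

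The secretory machinery differed at a few named points. Bhlha15 (Mist1), a transcription factor that expands the secretory apparatus of serous and zymogenic cells, was the 1 called gene of 29 secretory and intestinal transcription factors. It stood at 17.0 and 13.9 proximal and 23.8 and 27.1 distal in GS4M2 and between 1.35 and 2.56 in GA3M2 (2.91 ± 0.17, adjusted p = 0.00013). The GA3M2 libraries of Bhlha15 lay within the GWTM2 range of 1.20 to 7.19, and GS4M2 was 2.48 above GWTM2 (adjusted p = 0.004). With the proximal names GS4M2 and GWTM2 exchanged the Bhlha15 difference was 1.52 (adjusted p = 0.13), so this call rests on the deposited names. Fkbp11, a prolyl isomerase of the secretory pathway singled out after its values were seen, showed the same order, with 22.0 to 40.8 in GS4M2, 5.92 to 9.51 in GA3M2 and 8.69 to 12.6 in GWTM2 (1.97 ± 0.19, adjusted p = 0.002). None of 31 genes of ER folding and stress was called by limma, edgeR or DESeq2, while 13 had an unadjusted p under 0.05, against 25.9% of all genes. Of these, 23 had a positive difference and the median was 0.36, with Ern2, a goblet cell sensor of ER stress, at 0.82 (adjusted p = 0.31) and Hyou1, an ER chaperone, at 0.76 (adjusted p = 0.16). Of 35 genes of mucin glycosylation and sulfation St3gal4, a sialyltransferase, was called: it was at 126 to 186 in GS4M2 and 54.8 to 75.6 in GA3M2 (1.24 ± 0.13, adjusted p = 0.0023), and it was called under all 22 alternatives.

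Genes of deep crypt secretory and Paneth-like cells moved in both directions. Of 12 tested, Mptx1, Ang4 and Cps1 were called higher in GS4M2 and Mmp7 higher in GA3M2. Mptx1, a pentraxin of the mucosal surface, was strongly tied to the segment: it was at 7.16 and 20.7 proximal and 541 and 1078 distal in GS4M2. In GA3M2 Mptx1 was at 0.0551 and 0.0481 proximal, which is 1 read in each library, and at 33.4 and 20.0 distal (4.25 ± 0.37, adjusted p = 0.0013). The GWTM2 libraries were higher still in each segment, with 62.9 and 46.4 proximal and 1603 and 6496 distal. Cps1, the enzyme that starts the urea cycle, was at 4.67 and 6.62 proximal and 42.1 and 67.5 distal in GS4M2 and at 0.110 and 0.241 proximal and 4.90 and 9.26 distal in GA3M2 (2.65 ± 0.23, adjusted p = 0.0013). Mmp7, the metalloproteinase that activates alpha-defensins in Paneth cells, ran the other way. It was at 7.86 and 8.37 proximal and 0.225 and 0.316 distal in GS4M2 against 106 and 70.7 proximal and 51.4 and 14.1 distal in GA3M2 (-3.87 ± 0.38, adjusted p = 0.002). GWTM2 values of Mmp7 differed between libraries of a segment, at 22.8 and 1.20 proximal and 25.6 and 0.250 distal. Mptx1, Ang4 and the Gsdmc genes belong to families of close relatives, and reads were kept where they mapped to 1 place, so their levels are uncertain where copies are near identical.

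Further genes of largest increase were lowly expressed in GA3M2. Hapln4, a link protein of extracellular matrix, was at 2.64 to 8.69 in GS4M2 and at 0 to 0.228 in GA3M2 (2.34 ± 0.26, adjusted p = 0.003). Pcdh17, a protocadherin, was at 4.17 to 11.6 against 0.342 to 1.40 (2.24 ± 0.20, adjusted p = 0.0013), and Grpr, the receptor of gastrin-releasing peptide, at 4.98 to 8.01 against 0.385 to 1.21 (2.13 ± 0.21, adjusted p = 0.002). Pycr1, an enzyme of proline synthesis, was called with Cps1 among 42 genes of amino acid, urea cycle and polyamine metabolism (1.19 ± 0.19, adjusted p = 0.012).

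Among the lists examined, that of interferon-stimulated and major histocompatibility complex (MHC) class II genes held the most genes called higher in GA3M2. Of 38 tested, 10 were called higher in GA3M2 and none in GS4M2, with a list median of -0.49. A positive difference was seen for 11 of the 38, none of them called. Among these, the interferon-stimulated genes Stat2 and Oas2 gave 0.71 (adjusted p = 0.039, under the fold change of 2) and 1.20 (adjusted p = 0.15). MHC class II molecules present peptides to CD4+ T cells, their genes are switched on by the coactivator Ciita, itself induced by interferon-gamma, and gut epithelium can express them. H2-Aa, an MHC class II alpha chain on chromosome 17, was at 0.959 and 17.4 proximal and 1.07 and 7.65 distal in GS4M2. In GA3M2 H2-Aa was at 197 and 151 proximal and 68.0 and 77.1 distal, above every GS4M2 library (-4.48 ± 0.65, adjusted p = 0.0095). Cd74, the invariant chain that escorts class II molecules, was at 11.8 and 158 proximal and 8.23 and 82.3 distal in GS4M2 and at 989 and 687 proximal and 348 and 321 distal in GA3M2 (-3.90 ± 0.80, adjusted p = 0.034). H2-Eb1 gave -3.84 ± 0.54 (adjusted p = 0.0091) and H2-Ab1 -3.71 ± 0.75 (adjusted p = 0.033). The same direction was called for H2-DMb1 and H2-DMa, which load peptides, for Ciita, for Gbp2 and Tap1, which are induced by interferon, and for the chemokine Cxcl9. Of the alternatives the call held in 21 of 22 for H2-Aa, 20 for H2-Eb1 and for H2-DMa, 19 for H2-DMb1, 15 for Ciita, 14 for H2-Ab1, 12 for Cd74, 9 for Gbp2 and 5 for Tap1, and in 17 of 21 for Cxcl9. Iigp1, an interferon-induced GTPase outside the list, was at 0.128 and 6.62 proximal and 0.451 and 4.59 distal in GS4M2 and at 81.5 and 58.1 proximal and 22.7 and 11.1 distal in GA3M2 (-3.57 ± 0.67, adjusted p = 0.026).

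The MHC class II genes varied within genotypes as well. In GS4M2 the second library of each segment was above the first, and in GWTM2 the first library was far above the second, with H2-Aa at 30.2 and 0.693 proximal and 154 and 1.13 distal. The distal control library of replicate 1 was thus above both distal GA3M2 libraries. Neither knockout was called against GWTM2 for H2-Aa, with differences of -1.19 for GS4M2 (adjusted p = 0.70) and 3.30 for GA3M2 (adjusted p = 0.10). Over the 38 listed genes the median against GWTM2 was -0.93 for GS4M2 and -0.53 for GA3M2. Called lower than GWTM2 were 1 of the 38 for GS4M2 (0.179% of all genes) and 5 for GA3M2 (1.12%). None was called higher than GWTM2 in either knockout. When same-numbered libraries were averaged H2-Aa had an adjusted p of 0.081, and 2 of the 38 genes were called. Without the second proximal GA3M2 library 8 were called. Macrophages and dendritic cells also express these genes. Of 18 macrophage markers 5 had a row in every table and none was called, with a summed level of 96.2 to 176 CPM in GS4M2, 169 to 249 in GA3M2 and 89.6 to 228 in GWTM2. A negative difference was seen for 4 of the 5 and a positive one for 1, with a median of -0.50. Cd68 gave -0.84 (adjusted p = 0.044, under the fold change of 2). At an unadjusted p under 0.05 there were 4 of the 5 (25.9% of all genes), and DESeq2 called 1 and edgeR none. Lyz2, a lysozyme of macrophages, had 303 to 537 reads in GA3M2 and 0 to 6 in GWTM2, and no row in the GS4M2 tables, whose smallest row means were 7.39 and 7.36. Ptprc, the pan-leukocyte gene, had 5 to 15 reads in GA3M2 and likewise no GS4M2 row. C1qa, a complement gene of macrophages, had 48 and 18 reads in proximal GS4M2, 42 and 82 in proximal GA3M2 and 39 and 45 in proximal GWTM2, and Adgre1 had no row in any table. Their part in the MHC class II difference was not tested.

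**Figure D2:**
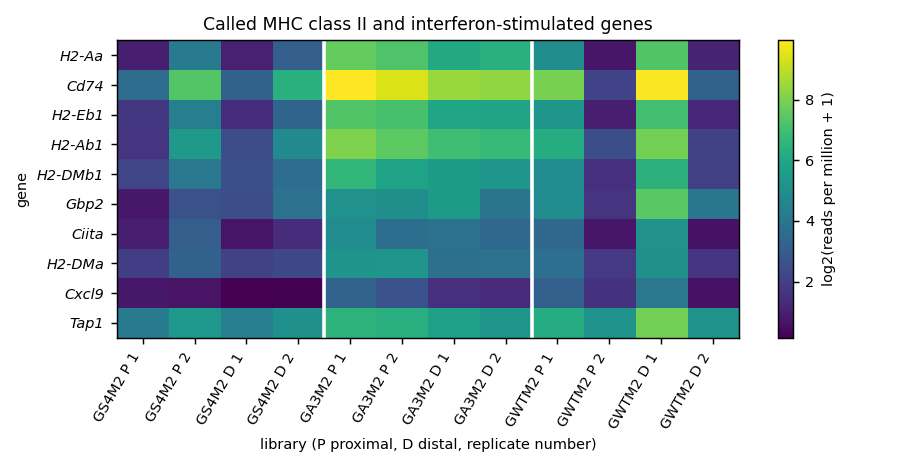
Level of the 10 called MHC class II and interferon-stimulated genes in 12 libraries, as log2(CPM + 1), with GS4M2, GA3M2 and GWTM2 separated by white lines. All 4 GA3M2 libraries are high for H2-Aa (68.0 to 197 CPM), and within GWTM2 the libraries of replicate 1 are high and those of replicate 2 low.

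The promoters of 3 class II genes that moved together are shown because these genes are known to share a Y box and an X box upstream of their start. The 130 bases before the start are given in the direction of transcription (RefSeq, GRCm38.p6), with the Y box letters TGATTGG and the X box letters AACTGATG in capitals. Only these exact strings were searched, and the X box string was not found in H2-Aa. Other spellings were not searched, so this does not show that H2-Aa lacks an X box.
H2-Aa (chr17:34287824-34287953, minus strand): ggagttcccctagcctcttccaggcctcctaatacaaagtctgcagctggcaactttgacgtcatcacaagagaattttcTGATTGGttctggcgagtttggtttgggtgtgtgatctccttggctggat
H2-Eb1 (chr17:34305737-34305866, plus strand): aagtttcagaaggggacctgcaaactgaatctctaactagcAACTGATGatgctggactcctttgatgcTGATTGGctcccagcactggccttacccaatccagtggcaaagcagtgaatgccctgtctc
H2-DMb1 (chr17:34153061-34153190, plus strand): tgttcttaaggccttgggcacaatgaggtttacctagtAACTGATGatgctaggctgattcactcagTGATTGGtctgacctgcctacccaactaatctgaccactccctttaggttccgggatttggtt
The letters TGATTGG, searched on both strands in the 250 bases before a start, were found in 7.23% of 32851 promoters, and AACTGATG in 0.676%. Of the 10 called genes Cd74 was left out of the promoter search, H2-Ab1 and Ciita had no usable promoter, and 7 were searched. The first string was held by 5 of the 7, namely H2-Aa, H2-Eb1, H2-DMb1, Cxcl9 and Tap1. The last 2 are not class II genes. The second string was held by 2 of the 7. H2-DMa, a called class II gene, and Gbp2 held neither string. H2-Eb1 and H2-DMb1 held both strings, as did 0.0731% of all promoters. These matches describe letters and not binding.

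Ion transport genes of the colonocyte membrane were called mostly higher in GA3M2. Of 47 tested, 5 were higher in GA3M2 and 1 in GS4M2, with a median of -0.19. Slc9a3, the apical sodium-proton exchanger NHE3, was at 8.76 and 27.3 proximal and 40.5 and 41.7 distal in GS4M2 and at 181 and 431 proximal and 72.6 and 373 distal in GA3M2 (-3.03 ± 0.61, adjusted p = 0.032). The spread of Slc9a3 within GA3M2 was wide, and averaging same-numbered libraries gave an adjusted p of 0.086. Best2, a bicarbonate channel of goblet cells, was at 11.8 and 11.2 proximal and 111 and 94.4 distal in GS4M2 and at 121 and 122 proximal and 354 and 313 distal in GA3M2 (-2.49 ± 0.28, adjusted p = 0.003). With the proximal names GS4M2 and GWTM2 exchanged Best2 gave -1.94 (adjusted p = 0.063) and Slc9a3 -1.85 (adjusted p = 0.052). Scnn1g and Aqp1, given next, also lost the call under that exchange. The call held in 14 of 22 alternatives for Slc9a3 and in 15 for Aqp1. That of Slc9a3 was lost with any 1 GS4M2 library left out. Scnn1b and Scnn1g, subunits of the epithelial sodium channel, gave -1.77 ± 0.42 (adjusted p = 0.049) and -1.58 ± 0.19 (adjusted p = 0.0047), the former called in 8 of 22 alternatives. The water channels went apart: Aqp1 was lower in GS4M2 (-1.03 ± 0.18, adjusted p = 0.019) and Aqp4 higher (1.23 ± 0.18, adjusted p = 0.0095). Aqp4 was at 119 and 132 proximal and 795 and 684 distal in GS4M2 and at 75.6 and 49.2 proximal and 225 and 333 distal in GA3M2. Absorptive colonocyte markers summed to 3128 to 5268 CPM in GS4M2 and 4111 to 10596 in GA3M2. Of the 16 markers 11 had a negative and 5 a positive difference, with a median of -0.35. Only Slc9a3 and Scnn1b were called, and both also belong to the transport list above. The part of absorptive colonocytes in the transport genes was not tested. As the cells were sorted in bulk, fewer cells of a type and less RNA per cell cannot be told apart. Of all 230 solute carriers tested, 3 were called, against 1.70% of all genes.

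None of the 6 tested genes that the study grouped for transport activity, chosen on these samples against GWTM2, was called between the knockouts by limma, edgeR or DESeq2, and 1 of the 6 had an unadjusted p under 0.05, against 25.9% of all genes. Their differences ran from -0.70 to 0.58 with a median of 0.12. Slc26a3, the chloride-bicarbonate exchanger of the colon surface, was at 17.0 and 37.8 proximal and 86.0 and 102 distal in GS4M2 and at 23.0 and 39.2 proximal and 44.5 and 132 distal in GA3M2, so the groups overlapped in both segments (0.02 ± 0.36, adjusted p = 0.98). Slc16a9, a monocarboxylate transporter, gave 0.58 ± 0.29 (adjusted p = 0.23), Sult1c2, a sulfotransferase, -0.70 ± 0.24 (adjusted p = 0.11) and Chp2, a partner of sodium-proton exchangers, 0.49 ± 0.34 (adjusted p = 0.39). Fxyd3, a regulator of the sodium pump, gave 0.22 ± 0.16 (adjusted p = 0.41) and Slc16a10, an aromatic amino acid transporter, 0.01 ± 0.14 (adjusted p = 0.99). Slco3a1 had no row in at least 1 table. With the proximal names GS4M2 and GWTM2 exchanged Slc16a9 was called (1.82, adjusted p = 0.0096), while Slc26a3 gave 0.99 (adjusted p = 0.18) and Sult1c2 0.19 (adjusted p = 0.82). The sign of Slc26a3 and of Slc16a10, both near 0, changed with TMM and upper-quartile scaling.

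Further genes of largest decrease had no common list. Insrr, a receptor tyrosine kinase that senses alkaline pH, was at 13.8 and 18.6 proximal and 0.394 and 1.21 distal in GS4M2 and at 91.2 and 42.6 proximal and 31.9 and 29.1 distal in GA3M2 (-3.03 ± 0.44, adjusted p = 0.0099). Against GWTM2, the difference of Insrr was 0.07 for GA3M2 (adjusted p = 0.92) and -2.96 for GS4M2 (adjusted p = 0.0065). With the proximal names exchanged the difference of Insrr between the knockouts was -1.79 (adjusted p = 0.21), that of Rab37, described next, -1.81 (adjusted p = 0.067) and that of Dlk1 -2.48 (adjusted p = 0.069), so these calls rest on the deposited names. Rab37, a small GTPase of secretory granules, was at 6.52 and 9.63 proximal and 1.13 and 2.37 distal in GS4M2 and at 55.9 and 36.3 proximal and 19.9 and 27.0 distal in GA3M2 (-2.77 ± 0.25, adjusted p = 0.0014). Dlk1, a secreted Notch-like ligand, was a distal gene at 13.0 and 7.65 in GS4M2 and 221 and 148 in GA3M2, with 0 to 116 reads in the proximal libraries (-2.76 ± 0.61, adjusted p = 0.041, called in 11 of 22 alternatives).

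Antimicrobial and repair genes gave a few calls each. Among 22 genes of antimicrobial defense, Gsdmc4 and Gsdmc2, gasdermins of the colon epithelium, were higher in GS4M2 (2.0 ± 0.25, adjusted p = 0.0052, and 1.59 ± 0.31, adjusted p = 0.03). Gsdmc3 was not called (1.40, adjusted p = 0.066). The call held in 21 of 22 alternatives for Gsdmc4 and in 14 for Gsdmc2. Both were lost when same-numbered libraries were averaged, and Gsdmc2 also with the proximal names GS4M2 and GWTM2 exchanged. Reg3b, a C-type lectin that kills bacteria, was higher in GA3M2, at 1314 and 1103 proximal and 40.8 and 98.5 distal in GS4M2 against 2272 and 3984 proximal and 914 and 301 distal in GA3M2 (-2.17 ± 0.46, adjusted p = 0.037). The call of Reg3b held in 13 of 22 alternatives and was lost without the second proximal GA3M2 library (adjusted p = 0.053). Of 28 genes of epithelial repair and squamous-like change, 24 had a negative difference and the median was -0.58. Of these 3 were called higher in GA3M2, among them Ly6c1 (-1.34 ± 0.31, adjusted p = 0.044) and Anxa1, a phospholipid-binding protein of wound repair (-1.18 ± 0.21, adjusted p = 0.023). Anxa1 was at 86.8 to 167 in GS4M2 and 147 to 378 in GA3M2. Ly6c1 was called in 7 and Anxa1 in 15 of 22 alternatives. Without the second proximal GA3M2 library 1 of the 28 was called, and none when same-numbered libraries were averaged. Vim, a fibroblast marker, was called higher in GA3M2 as well, at 2.17 to 7.41 CPM against 0.575 to 1.75 (-1.18 ± 0.28, adjusted p = 0.048), and it was 1 of 2 fibroblast markers of 15 with a row. The other of the 2, Pdgfrb, had a positive difference of 0.34 and was not called. The call of Vim was lost with any 1 of the 8 libraries left out and held in 8 of 21 alternatives. Col1a1 had 8 to 207 reads in GA3M2 and Acta2 9 to 225, each with its highest count in the second proximal library, and neither had a GS4M2 row. The smooth muscle markers that could be tested, Mylk and Tagln, had positive differences of 0.26 and 0.06 and were not called. Ly6g, a neutrophil surface gene and the 1 neutrophil marker of 10 with a row, was at 5.94 to 32.0 in GS4M2 and 18.5 to 120 in GA3M2 (-2.02 ± 0.45, adjusted p = 0.041). It was called in 14 of 22 alternatives and lost the call with any 1 GS4M2 library left out. The part of stromal or immune cells in the repair genes was not tested.

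Proliferation genes leaned towards GS4M2 without a call. Of 53 tested genes of the G2 and M phases 51 had a positive difference, with a median of 0.39, and of 41 S phase genes 33 did, with a median of 0.19, against 55.4% of all genes. Mki67, a marker of cycling cells, was at 232 and 199 proximal and 551 and 431 distal in GS4M2 and at 166 and 75.8 proximal and 230 and 254 distal in GA3M2 (0.97 ± 0.21, adjusted p = 0.041), which is under the fold change of 2. At an unadjusted p under 0.05 there were 24 of the G2 and M phase genes and 10 of the S phase genes, against 25.9% of all genes, and edgeR and DESeq2 called none in either list. The G2 and M phase median was 0.03 for proximal and 0.75 for distal libraries, a difference that was not tested. Genes of ribosomal proteins leaned the other way, with 75 of 76 negative and a median of -0.43, and none was called. At an unadjusted p under 0.05 there were 60 of them, against 25.9% of all genes, and edgeR and DESeq2 called none. Their summed level was 39768 to 41733 CPM in GS4M2, 49530 to 74794 in GA3M2 and 36042 to 43608 in GWTM2.

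None was called in 4 lists of signaling and cell state. The genes with an unadjusted p under 0.05 numbered 11 of 30 for the BMP and TGF-beta pathway, 7 of 21 for stem cell genes, 3 of 18 for Notch and 6 of 37 for NF-kB, against 25.9% of all genes. DESeq2 called 3 genes of the BMP and TGF-beta list, lower in GS4M2, and neither it nor edgeR called any other gene of the 4 lists. Among 30 genes of the BMP and TGF-beta pathway the median was 0.08, with Bmp3, a BMP antagonist made by the epithelium, at -1.36 ± 0.37 (adjusted p = 0.067) and Smad6, an inhibitory Smad and BMP target, at 0.93 ± 0.27 (adjusted p = 0.081). Smad4 itself had a difference of -0.44 ± 0.10 (adjusted p = 0.041), which is under the fold change of 2, and Bmpr1a differed by 0.13 ± 0.11 (adjusted p = 0.49). Of 21 stem cell and Wnt target genes the largest differences were those of Ccnd1 (0.71, adjusted p = 0.052) and Prom1 (-0.66, adjusted p = 0.092). Of 18 Notch pathway genes they were those of Notch1 (0.55, adjusted p = 0.34) and Notch4 (-0.55, adjusted p = 0.092). Of 37 genes of the NF-kB and cytokine response they were those of Cxcl1, a neutrophil chemokine (-0.91, adjusted p = 0.14), and Steap4, a metalloreductase (-0.84, adjusted p = 0.34). Oxidative phosphorylation and Hox genes had medians of -0.07 and 0.02 with none called, and with 11 of 92 and 1 of 17 genes at an unadjusted p under 0.05, against 25.9% of all genes. Of these lists edgeR and DESeq2 each called 1 Hox gene.

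**Figure D3:**
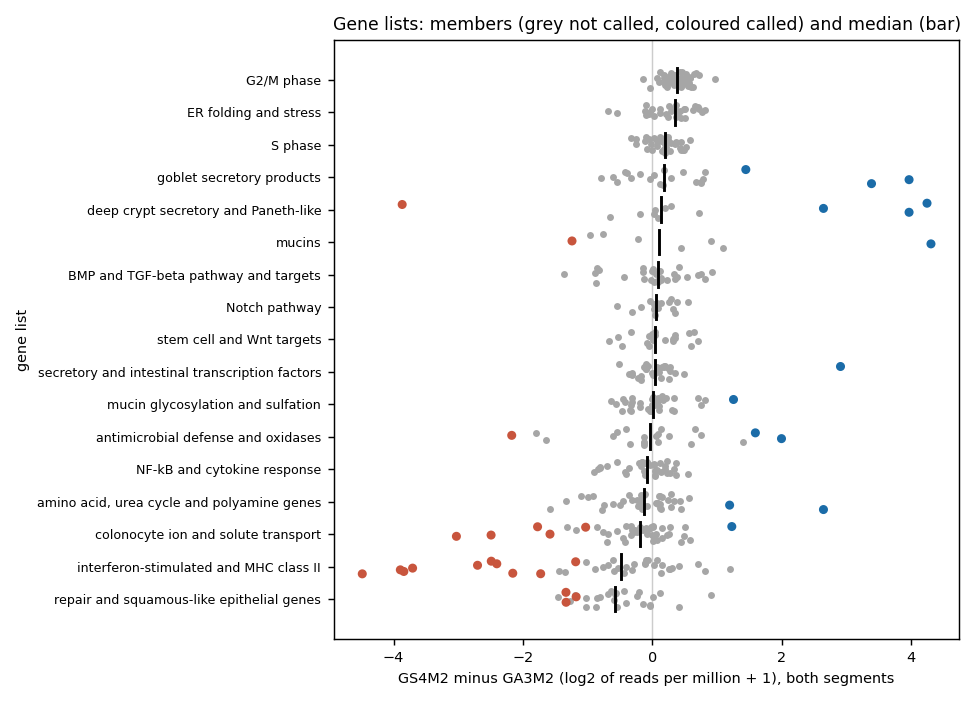
Difference GS4M2 minus GA3M2 of each tested member of 17 gene lists on the scale of log2(CPM + 1), grey where not called, coloured where called, with a bar at the list median. Calls lie at the extremes of a few lists, while the medians stay between -0.58 and 0.39.

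Each segment was also compared by itself. In the proximal colon 78 genes were called (0.633%), 50 higher in GS4M2 (0.406%) and 28 higher in GA3M2 (0.227%). In the distal colon 134 were called (1.09%), 41 higher in GS4M2 (0.333%) and 93 higher in GA3M2 (0.755%). The proximal count rested on single libraries: 2 genes were called without the second proximal GA3M2 library, 9 and 16 without the first and the second proximal GS4M2 library, 1249 without the first proximal GA3M2 library, 32 without either distal GS4M2 library, and 53 and 49 without the first and the second distal GA3M2 library. The distal count fell to 26 without the first distal GS4M2 library, and it was 34 and 44 without the first and second distal GA3M2 library and 42 without the second distal GS4M2 library. All 210 genes called over both segments had the same sign in each, and 29 were called in both. Muc2 differed by 4.71 in the proximal (adjusted p = 0.00043) and 3.91 in the distal colon (adjusted p = 0.0014), Ang4 by 3.90 (adjusted p = 0.0076) and 4.04 (adjusted p = 0.0023), and Bhlha15 by 2.71 (adjusted p = 0.0056) and 3.10 (adjusted p = 0.0014). Mmp7 differed by -3.26 (adjusted p = 0.035) and -4.47 (adjusted p = 0.0044). Best2 differed by -3.30 (adjusted p = 5.6e-05) and -1.69 (adjusted p = 0.0019).

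**Figure D4:**
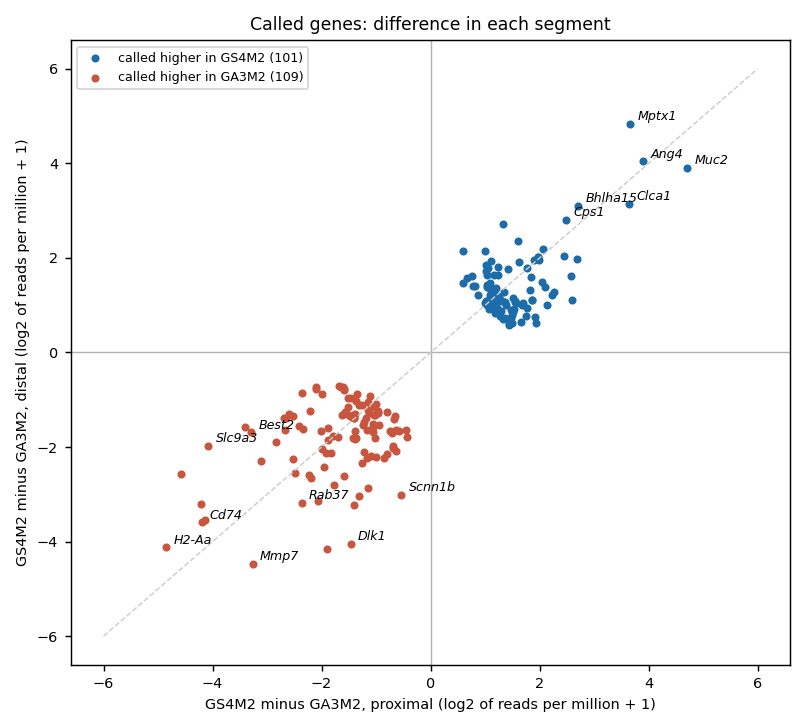
Difference GS4M2 minus GA3M2 of the 210 called genes in the proximal (x) and distal colon (y), both on the scale of log2(CPM + 1), with a dashed line of equality. All points lie in the lower left or upper right part, with Muc2 at 4.71 and 3.91 and Scnn1b at -0.54 and -3.01.

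The genotype difference itself differed between segments for 5 genes (0.0406%), each lower in GS4M2 in the distal colon. Car8, a carbonic anhydrase-related protein, was at 272 and 281 in proximal GS4M2 and 328 and 285 in proximal GA3M2, but at 16.4 and 16 against 125 and 121 in the distal colon. Its differences of -0.15 and -2.85 were apart by 2.71 ± 0.19 (interaction, adjusted p = 0.0029), and Car8 was called under all 18 alternatives of this test. Mvb12b, a subunit of the ESCRT-I sorting complex, was at 30.9 and 27.0 against 38.8 and 23.8 in proximal and at 0.789 and 0.685 against 12.4 and 12.1 in distal libraries (2.86 ± 0.34, adjusted p = 0.049). Scnn1b was at 44.0 and 36.4 against 64.7 and 53.1 in proximal and at 8.51 and 6.64 against 72.0 and 63.7 in distal libraries (2.47 ± 0.27, adjusted p = 0.026). Clu, a secreted chaperone that marks regenerating epithelium, was higher in GS4M2 in the proximal colon, at 43.2 and 36.9 against 11.1 and 21.7, and lower in the distal colon, at 1.35 and 1.53 against 20.6 and 17.2 (4.33 ± 0.41, adjusted p = 0.012). Angptl2, a secreted glycoprotein, crossed in the same way, with 40.4 and 32.7 against 5.35 and 7.84 and then 0.958 and 1.32 against 9.85 and 7.45 (4.49 ± 0.35, adjusted p = 0.0042). Without the first proximal GA3M2 library 493 genes were called for this difference, and 2 without the first proximal GS4M2 library. With the proximal names GS4M2 and GWTM2 exchanged, Car8 alone of the 5 genes was still called. Mvb12b was singled out after its values were seen, to complete the count of 5.

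**Figure D5:**
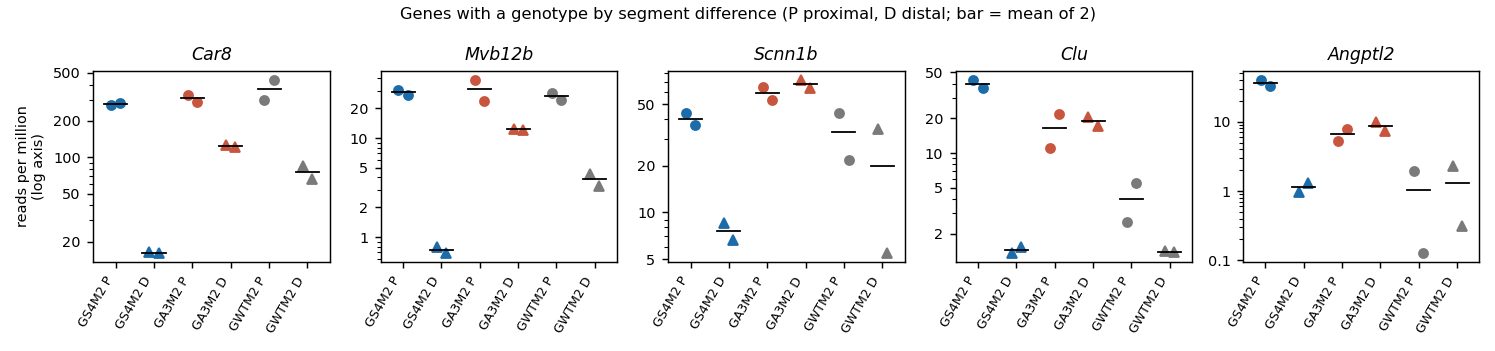
CPM (log axis) of the 5 genes whose genotype difference differed between segments, by library, with circles for proximal, triangles for distal libraries and a bar for the mean of 2. Proximal GS4M2 and GA3M2 libraries of Car8 lie together between 272 and 328, while the distal GS4M2 libraries fall to 16 and 16.4.

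Against the shared GWTM2 controls, in a fit of all 12 libraries, 55 genes were called for GS4M2 (0.447%), 33 higher (0.268%) and 22 lower (0.179%) than in the controls. For GA3M2 296 were called (2.40%), 158 higher (1.28%) and 138 lower (1.12%). Both counts use the same 4 control libraries, and they reached 132 and 450 without the first distal GWTM2 library, 15 and 197 without the second proximal one and 24 and 205 without the second distal one. Unlike every knockout library, the first GWTM2 library of each segment expressed no Y chromosome genes. The GS4M2 count was also 17 and 19 without the first proximal and the second distal GS4M2 library, 34 without the first distal one and 86 without the second proximal GA3M2 library. Of the 101 genes higher in GS4M2 than in GA3M2, 5 were called above GWTM2 in GS4M2 and 42 below GWTM2 in GA3M2. Of the 109 genes higher in GA3M2, 12 were called below GWTM2 in GS4M2 and 40 above it in GA3M2. For 112 of the 210 genes neither knockout was called against GWTM2. The 210 were picked on the difference between these same knockout libraries, which favours such calls. These counts therefore cannot show which knockout moved. For Muc2 GS4M2 was 1.36 above GWTM2 (adjusted p = 0.078) and GA3M2 differed from it by -2.95 (adjusted p = 0.0009). Ang4 gave -0.54 for GS4M2 (adjusted p = 0.70) and -4.51 for GA3M2 (adjusted p = 0.0019), Clca1 -0.94 (adjusted p = 0.39) and -4.33 (adjusted p = 0.0013), and Mptx1 -2.06 (adjusted p = 0.058) and -6.31 (adjusted p = 5e-05). Rab37 gave -1.43 for GS4M2 (adjusted p = 0.058) and 1.34 for GA3M2 (adjusted p = 0.021), values that rest on the deposited names as well.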

How the data were processed

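RNA-seq of sorted Muc2-mCherry+ colon cells was analysed from 4 tables of normalized counts. The authors mapped reads uniquely to mm10 with STAR 2.5.3 and normalized them with DESeq2 1.28.1 (per the labels and methods), and the deposited signal values are gene counts divided by size factors. Dividing each column by its smallest step gave whole reads (within 0.1) for 100% of the values. Rows without a name (4 in each GS4M2 table, 20.9% to 28.2% of the values), names turned into dates and duplicated names were left out. The tables' first filter is not given in the sources used here, and the GS4M2 tables keep fewer low genes. Reads were scaled to 1000000 over named genes, and genes with a mean of at least 1 count per 1000000 (CPM) were tested on log2(CPM + 1) with limma 3.58.1 (R 4.3.3, trend), the segment as a block and Benjamini-Hochberg adjustment. Interactions used genotype by segment, and the controls a fit of 12 libraries. The test was checked on simulated data. edgeR 4.0.16 and DESeq2 1.42.0 on the recovered reads were among the alternatives. Library totals were 15647603 to 20783127 reads, and the number of 2 libraries per genotype and segment limits precision. The labels do not say which libraries come from separate animals, so p-values measure the spread between these samples, which may be technical.

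Named genes were the targeted genes, the genes the study grouped, the 10 largest increases and 10 largest decreases among called genes whose libraries do not overlap, up to 4 called members of each list (or the 2 largest differences where none was called) and the 3 interaction genes of smallest adjusted p. Some genes that this rule names are not reported here. Any other gene was chosen after its values were seen. The groups and gene lists were chosen with earlier results of these data known.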

Additional observations from a re-analysis of the deposited data

Results flagged for a closer look

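For 5 genes the difference between GS4M2 and GA3M2 itself differed between the proximal and the distal colon, by an interaction test (limma, adjusted p under 0.05 and a fold change of at least 2). The proximal minus the distal difference was 4.49 for Angptl2, 4.33 for Clu, 2.86 for Mvb12b, 2.71 for Car8 and 2.47 for Scnn1b on the log2 scale. Of 18 alternatives the call held in 18 for Car8, 17 for Angptl2, 12 for Clu, 10 for Scnn1b and 7 for Mvb12b. No group had 4 or more samples of 1 segment, so no library was examined as an outlier within its group.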

How the results depend on the processing

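Over both segments the 210 calls became 61 with a pseudocount of 10, 134 with a mean of at least 5 CPM, 441 with DESeq2, 73 without the segment term, 63 with same-numbered segments averaged and 328 at an unadjusted p, and ranged from 85 to 241 with 1 library left out. The 78 proximal calls became 50 with a pseudocount of 0.1, 24 with a mean of at least 5, 49 with edgeR, 418 with DESeq2 and 590 unadjusted (2 to 1249 with 1 library left out). The 134 distal calls became 73 with a pseudocount of 10, 353 with DESeq2 and 405 unadjusted (26 to 186). The 5 interaction calls became 85 with DESeq2 and 362 unadjusted (2 to 493). Against GWTM2, the 55 GS4M2 calls became 14 with a pseudocount of 10 and 203 with DESeq2 (15 to 132), and the 296 GA3M2 calls 85 and 551 (197 to 450). The cause of these changes was not tested.

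With the replicate number as a block, 214 genes were called over both segments, 366 in the proximal colon, 259 in the distal colon and 16 for the interaction. The numbers are not stated to mark a shared animal or day. The correlation of the replicate 1 minus replicate 2 deviations was 0.52 between segments of GS4M2, 0.28 for GA3M2 and 0.11 to 0.20 between the knockouts. Between segments of GWTM2 it was 0.64. Across genotypes it was 0.08 for proximal GS4M2 with distal GWTM2 and -0.04 for distal GS4M2 with proximal GWTM2. What these values mean for the proximal names was not tested.

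With the proximal names GS4M2 and GWTM2 exchanged, an alternative chosen after seeing the data, 218 genes were called, 113 of them among the 210, the Muc2 difference was 3.79 (4.19 to 4.43 with 1 library left out), and Angptl2 changed from 0.07 to -2.11. Of 55 named called genes, Muc2, Ang4, St3gal4, Fkbp5, Fkbp11 and Apoe were called under all 22 alternatives. Of 2313 values of named genes, 1979 kept direction and side of the threshold, 40 of genes not called changed sign without a call, 273 lost the call, 20 gained it and 1 reversed.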

Other observations

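A few more called genes that belong to none of the lists were chosen after their values were seen and are given as a description. Fkbp5, a co-chaperone of steroid receptors, was at 75.6 and 74.7 CPM proximal and 51.2 and 34.6 distal in GS4M2 and at 300 and 404 proximal and 232 and 317 distal in GA3M2, a difference of -2.43 ± 0.18. Sgk1, a kinase that keeps sodium channels at the membrane, was at 33.9 to 53.2 in GS4M2, 145 to 495 in GA3M2 and 93.8 to 140 in GWTM2. Hsd11b2, the enzyme that inactivates glucocorticoids in aldosterone target cells, was at 594 to 687 in GS4M2 and 1225 to 1675 in GA3M2. Txnip, a regulator of glucose uptake, was at 229 to 330 and 544 to 872. When same-numbered libraries were averaged Sgk1, Hsd11b2 and Txnip were not called, nor were Sgk1 and Txnip with the proximal names GS4M2 and GWTM2 exchanged.

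Apoe, a lipid carrier, was at 4.68 to 9.65 in GS4M2, 23.1 to 37.4 in GA3M2 and 4.25 to 4.94 in GWTM2, a difference between the knockouts of -2.03. Lrg1, a secreted glycoprotein of inflammation, was at 25.6 to 74.7 in GS4M2 and 180 to 256 in GA3M2, with GWTM2 libraries from 0.125 to 65, and it was not called with the proximal names exchanged (adjusted p = 0.062). Apoe is also a gene of macrophages. Of 18 macrophage markers 5 had a row in every table, 4 of them with a negative difference, and none was called. Of those without, Lyz2 and Spp1 had 92 to 537 reads in GA3M2 and no row in the GS4M2 tables, Csf1r had 14 and 17 reads in proximal GA3M2 and no GS4M2 row, and C1qa had 48 and 18 reads in proximal GS4M2 against 42 and 82 in proximal GA3M2. Their part in the difference of Apoe was not tested.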
